A study of Mus musculus with 2 samples.

Results

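The receptors through which noradrenaline, serotonin, nucleotides, prostanoids, endothelin, vasopressin, natriuretic peptides, lysolipids, kinins, adenosine, acetylcholine, tachykinins and the calcitonin gene-related peptide family act were compared between 2 regions of the mouse aorta. Members were the array probes whose gene name begins with the stem of such a receptor family, with Ptgfr, Ptgir, Tbxa2r, Calcrl and Ramp1 to Ramp3 added by name, and they were kept if well above background in at least 1 region on both arrays. The name pattern took 128 of 41174 probes, and 100 of these, standing for 74 genes, were kept, out of 30540 kept probes and 21367 genes in the whole series. The pattern also caught the serine proteases Htra1 to Htra4 (6 kept probes), which are not receptors and are described apart. That left 94 probes of 70 receptor or receptor-partner genes, out of 80 such genes on the array. The other 10 genes had no probe that passed and were not measured: the prostaglandin E2 receptors Ptger1, Ptger2 and Ptger4, the serotonin receptors Htr1a, Htr1f, Htr3b and Htr7, the lysolipid receptors S1pr5 and Lpar3, and the tachykinin receptor Tacr2.

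Each region was 1 RNA pool from 6 wild-type C57Bl/6 mice, 3 males and 3 females aged 16 weeks, and the labels give no further genotype or treatment. The arch pool, from the region the labels call atherosclerosis-prone, held the aortic root, the arch itself and 2 mm of adjoining thoracic vessel. The thoracic pool, from the region called resistant, held the following 6 mm. All vessels were flushed with Triton X-100, a detergent that strips the endothelium, before both regions were taken. The same pools were hybridised to 2 arrays with opposite dyes: on array 1 the arch carried Cy5, and on array 2 it carried Cy3. With 1 pool per region there is no biological replicate, so the differences have no replicate check and no test or p-value is given. Per channel, 71.3% to 81.5% of gene spots passed the scanner software's threshold above background. Of the negative control spots, 0.00% (array 1) and 1.91% (array 2) passed it in Cy5, and 6.69% and 10.8% in Cy3. Values after ± are the distance of either array from the mean of both, a technical error only.

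Vascular smooth muscle reads circulating and local mediators through these receptors. Receptors coupled to Gq raise intracellular calcium and contract the muscle, those coupled to Gs raise cyclic AMP and relax it, and those coupled to Gi lower cyclic AMP. Natriuretic peptide receptors carry a guanylyl cyclase and relax muscle through cyclic GMP, except the clearance receptor, which removes the peptides, and P2X receptors are ATP-gated cation channels. Calcrl needs a receptor activity-modifying protein (RAMP) at the cell surface: with Ramp1 it binds calcitonin gene-related peptide, a strong vasodilator, and with Ramp2 or Ramp3 it binds adrenomedullin.

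With an offset of 50 and at its brightest probe, Calcrl had the largest difference among the receptors, a signal 2.04-fold lower in the arch. Avpr1a, the vasopressin receptor that contracts vascular muscle, was next on the lower side, and it passed Calcrl with an offset of 0, by the scanner software's ratios and as the mean over probes. The prostaglandin F receptor Ptgfr and the endothelin receptor Ednra had the highest ratios. Genes were called where both arrays gave a difference of 1.5-fold or more with the same sign. By that rule 0 of 70 receptors were higher in the arch, against 0.257% of all genes, and 1 of 70, Calcrl, was lower, against 0.229% of all genes. With the offset of 50, 57 of 70 receptors (81.4%) had a mean log2 ratio within 0.2 of 0, against 93.1% of all genes measured. The offset pulls the ratios of dim spots toward 0, and 38 of 70 receptors were dimmer than the median gene. Some of the 57 had larger ratios by the scanner software, such as P2rx1 (−0.19, and −0.78 by the scanner) and P2ry14 (0.07 and 0.48). The median ratio of the 70 receptors was 0.01 on the log2 scale, beside 0.00 over all genes, and 38 of 70 (54.3%) lay above 0, against 51.5% of all genes. A looser description, a mean ratio of at least 0.2 in size with the same sign on both arrays, took 9 receptors on the higher side (3.95% of all genes) and 4 on the lower side (2.83% of all genes), together 13 of 70, against 6.78% of all genes. No test of these shares was made. In the plot of ratios by family, most families cluster around 0 and the outlying values are separate genes of different families.

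**Figure D1:**
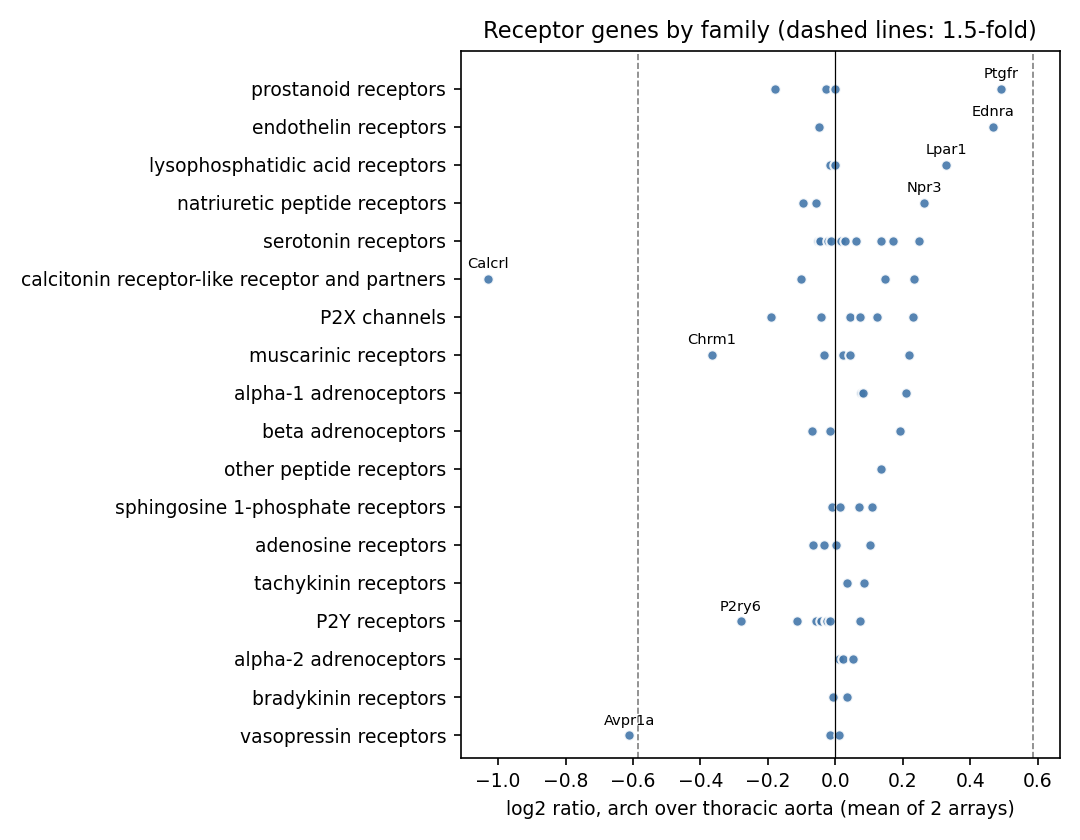
Log2 ratio of arch over thoracic aorta (x axis, mean of the 2 arrays) of each of the 70 receptor or partner genes, one row per family. Calcrl and Avpr1a lie to the left of the 1.5-fold line, Ptgfr and Ednra are the points farthest to the right, and 57 of the 70 points lie between −0.2 and 0.2.

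The promoters of the 2 receptors with the lowest and the 2 with the highest ratio are shown because these genes stood farthest from 0 in each direction. Each is the 250 bases before the annotated start from RefSeq (build GRCm38.p6), written 5′ to 3′ on the gene's own strand, and 53 of the 70 genes had an entry in that table. Capitals mark matches to TATAAA (the TATA box), GGGCGG (a GC box) or TGACG (the core of a cyclic AMP response element), and the CArG box of smooth muscle genes was searched as well, all on both strands. The Calcrl promoter lies at chr2:84425267-84425516 on the minus strand, the Avpr1a promoter at chr10:122448249-122448498 on the plus strand, the Ptgfr promoter at chr3:151837529-151837778 on the minus strand and the Ednra promoter at chr8:77724453-77724702 on the minus strand.
Calcrl: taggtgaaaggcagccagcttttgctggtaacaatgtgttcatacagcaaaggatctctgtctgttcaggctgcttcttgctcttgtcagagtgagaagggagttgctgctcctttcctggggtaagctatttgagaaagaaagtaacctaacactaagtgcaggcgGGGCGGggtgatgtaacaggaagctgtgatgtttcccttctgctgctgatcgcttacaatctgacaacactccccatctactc
Avpr1a: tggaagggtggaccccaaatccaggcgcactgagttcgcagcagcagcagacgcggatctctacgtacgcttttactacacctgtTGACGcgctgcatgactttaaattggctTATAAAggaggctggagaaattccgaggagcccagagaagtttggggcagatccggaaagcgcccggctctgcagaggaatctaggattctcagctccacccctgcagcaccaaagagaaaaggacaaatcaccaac
Ptgfr: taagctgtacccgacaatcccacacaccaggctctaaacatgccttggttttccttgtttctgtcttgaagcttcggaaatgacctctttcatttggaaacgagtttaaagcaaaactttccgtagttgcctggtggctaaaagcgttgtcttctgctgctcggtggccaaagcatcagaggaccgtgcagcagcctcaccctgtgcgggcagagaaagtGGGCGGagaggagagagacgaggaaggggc
Ednra: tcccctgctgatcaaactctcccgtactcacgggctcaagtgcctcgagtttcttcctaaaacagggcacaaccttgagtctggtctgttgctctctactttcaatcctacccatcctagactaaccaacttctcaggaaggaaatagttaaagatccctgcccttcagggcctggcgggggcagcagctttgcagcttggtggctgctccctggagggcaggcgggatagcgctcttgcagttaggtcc
The Calcrl sequence held 1 GGGCGG, which begins 83 bases before the start, and the Ptgfr sequence held 1, which begins 30 bases before it. Of all 32851 promoter windows of this length, 32.7% hold that motif. The Avpr1a sequence held TATAAA 137 bases before the start (in 12.4% of all windows) and TGACG 165 bases before it (17.8%), and none of the matches overlap. None of the 4 sequences held a CArG box, found in 1.47% of all windows, and the Ednra window held none of the 4 motifs. The GC content was 48.4% for Calcrl, 53.6% for Avpr1a, 52.0% for Ptgfr and 54.8% for Ednra, beside a median of 52.4% over all windows. A match is a run of letters and was not tested as a binding site.

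Among the Gs-coupled receptors, which relax muscle, Calcrl was the only called gene of 10 measured. Its brightest probe had signals of 279 and 302 intensity units in the arch on arrays 1 and 2, against 587 and 598 in the thoracic aorta (signals include the offset of 50 units added at background correction). Both arch values lay far below both thoracic values, and the log2 ratio was −1.03 ± 0.04, the 19th lowest of 21367 genes. A second, dimmer probe of Calcrl did not show the difference: it had 104 and 101 units in the arch, against 105 and 103 in the thoracic aorta, a ratio of −0.03 ± 0.00. As the mean of both probes Calcrl had −0.53 and was not called. The files do not say which part of the transcript either probe covers.

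The RAMP partners of Calcrl were not called. Ramp1, the partner for calcitonin gene-related peptide, had 964 and 1142 units in the arch, against 1043 and 1214 in the thoracic aorta, a ratio of −0.10 ± 0.01. Ramp2, the adrenomedullin partner, had 1302 and 1236 units in the arch, against 1159 and 1133 in the thoracic aorta, a ratio of 0.15 ± 0.02 that turned to −0.02 when arrays were centred on their median instead of by loess. Ramp3, the other adrenomedullin partner, had 215 and 212 units in the arch, against 184 and 179 in the thoracic aorta, a ratio of 0.23 ± 0.01. The arch values of Ramp2 and Ramp3 thus lay above both thoracic values, opposite in sign to Calcrl. The Ramp1 values overlapped between regions across the arrays, but within each array the arch was lower (−0.11 and −0.09). Of their ligands, adrenomedullin (Adm) had 290 and 312 units in the arch, against 228 and 235 in the thoracic aorta, a ratio of 0.38 ± 0.03 that was below the 1.5-fold rule. The genes of the calcitonin gene-related peptides, Calca and Calcb, had ratios of 0.03 ± 0.06 and 0.13 ± 0.03.

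The other Gs-coupled receptors lay within 0.2 of 0 at their brightest probes. Adrb1, the beta adrenoceptor best known from the heart, had 388 and 398 units in the arch, against 336 and 352 in the thoracic aorta, a ratio of 0.19 ± 0.02 at its brightest probe and 0.05 at another. Adora2a, an adenosine receptor that relaxes vessels, had 2270 and 2472 units in the arch, against 2386 and 2579 in the thoracic aorta, a ratio of −0.07 ± 0.01, and −0.20 at its second probe. The beta adrenoceptor Adrb3 (−0.07 ± 0.04), the prostacyclin receptor Ptgir (0.00 ± 0.00, with 0.18 at another probe), Adora2b (−0.03 ± 0.05) and the renal vasopressin receptor Avpr2 (0.01 ± 0.07) had ratios near 0. The Gs-coupled serotonin receptors Htr4 and Htr6 had −0.05 ± 0.05 and 0.17 ± 0.03. The median of the 10 genes was −0.02, with 4 above 0.

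The Gq-coupled receptors held the next largest differences, in both directions. Avpr1a had 76.5 and 71.6 units in the arch, against 114 and 112 in the thoracic aorta, a ratio of −0.61 ± 0.03, the 54th lowest of all genes. Both arch values were clearly below the thoracic ones, but array 1 at −0.58 missed the 1.5-fold rule by a small margin, so the gene was not called. Avpr1a is dim: above the local background it kept 27.2 and 39.4 units in the arch, against 82.1 and 68.6 in the thoracic aorta, while negative control spots kept medians of 10.3 units (Cy5) and 27.1 units (Cy3) on the first array and of 9.90 and 25.9 on the second. With no offset the ratio was −1.42, and the scanner software's own ratio was −1.63 ± 0.03, or 3.10-fold lower in the arch, both of which passed the rule.

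Ptgfr, which contracts muscle in response to prostaglandin F2α, had 191 and 197 units in the arch, against 148 and 128 in the thoracic aorta. The arch values lay above both thoracic values, and the ratio was 0.49 ± 0.13 or 1.41-fold, the 103rd highest of all genes. The arrays differed in size, at 0.36 and 0.62, and only array 2 passed 1.5-fold. Ednra, the receptor through which endothelin-1 contracts vascular muscle, had 233 and 208 units in the arch, against 159 and 159 in the thoracic aorta. That is 1.38-fold (0.47 ± 0.08), the 111th highest ratio. Ednra too depends on the probe: its other 2 kept probes had ratios of −0.05 ± 0.03 and −0.01 ± 0.00, and the mean over the 3 was 0.14. Ednrb, the other endothelin receptor, had 134 and 156 units in the arch, against 151 and 149 in the thoracic aorta, and its ratio of −0.05 ± 0.12 changed sign between arrays. The ligand gene Edn1 had 0.05 ± 0.01.

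**Figure D2:**
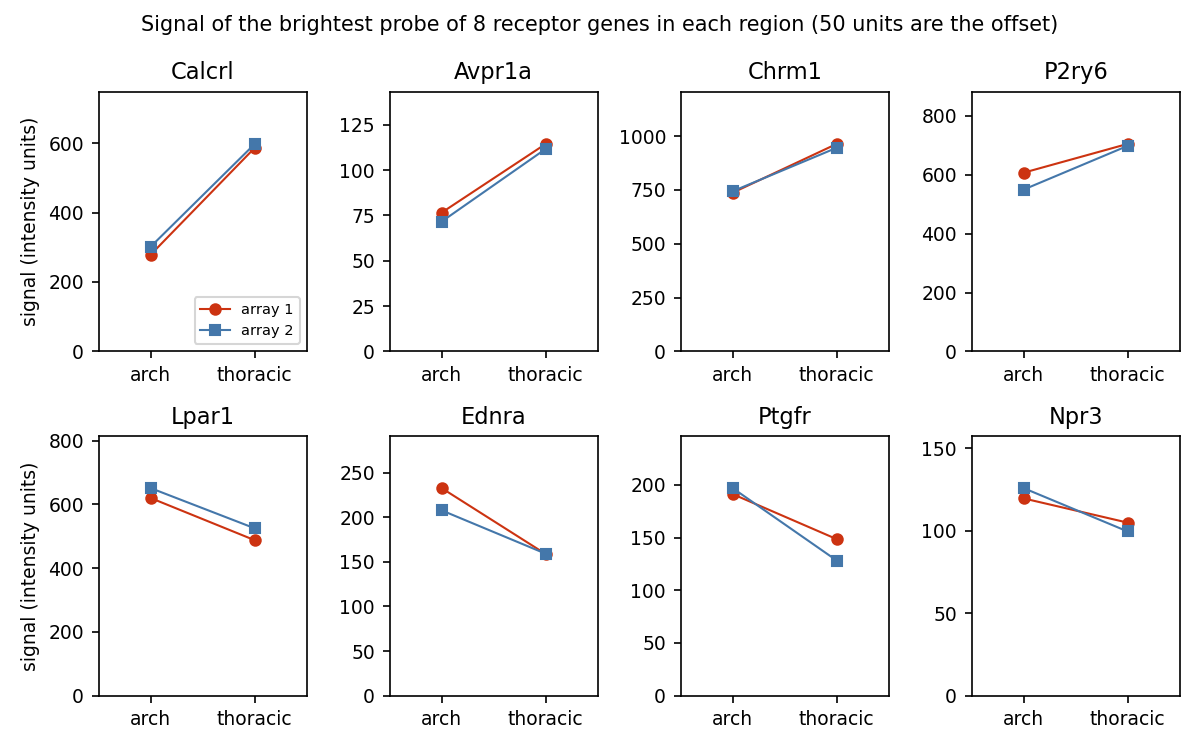
Signal of the brightest probe of 8 receptor genes in the arch (left) and the thoracic aorta (right) on each array, in intensity units that include the offset of 50, with each y axis starting at 0. The 2 arrays run nearly parallel for Calcrl, Avpr1a and Chrm1, and are farther apart for Ptgfr and Ednra.

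Other Gq-coupled receptors on the lower side were Chrm1 and P2ry6. The muscarinic acetylcholine receptor Chrm1 had 737 and 744 units in the arch, against 964 and 946 in the thoracic aorta, a ratio of −0.37 ± 0.02. That value comes from a probe whose file accession is not a RefSeq transcript, while the probe with a RefSeq accession for Chrm1 was not above background, so the identity of the bright signal is uncertain. P2ry6, a receptor for UDP, had 607 and 550 units in the arch, against 705 and 698 in the thoracic aorta, a ratio of −0.28 ± 0.06. For both genes all arch values lay below all thoracic values, and neither reached 1.5-fold on either array.

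The alpha-1 adrenoceptors, the main receptors by which noradrenaline contracts arteries, had ratios of 0.07 to 0.21. Adra1b had 103 and 110 units in the arch, against 91.0 and 93.5 in the thoracic aorta, a ratio of 0.21 ± 0.03, with −0.05 at a second probe. Adra1d had 250 and 264 units in the arch, against 229 and 260 in the thoracic aorta. Its regions overlapped across the arrays, though the ratio was above 0 on each (0.13 and 0.02). The mean of 0.07 ± 0.05 became −0.05 with median centring. Adra1a had 0.08 ± 0.02. Among the serotonin receptors of this class, Htr2a had 0.14 ± 0.02, Htr2b −0.01 ± 0.04 and Htr2c 0.03 ± 0.01. The thromboxane receptor Tbxa2r had −0.03 ± 0.03, and the kinin receptors had 0.03 ± 0.10 (Bdkrb1, at 858 and 856 units in the arch, against 781 and 896 in the thoracic aorta) and −0.01 ± 0.06 (Bdkrb2). The substance P receptor Tacr1 had 0.08 ± 0.07. Over the 23 Gq-coupled receptors the median ratio was −0.01, with 11 above 0, 3 at 0.2 or more (Adra1b, Ednra, Ptgfr) and 3 at −0.2 or less (Avpr1a, Chrm1, P2ry6).

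**Figure D3:**
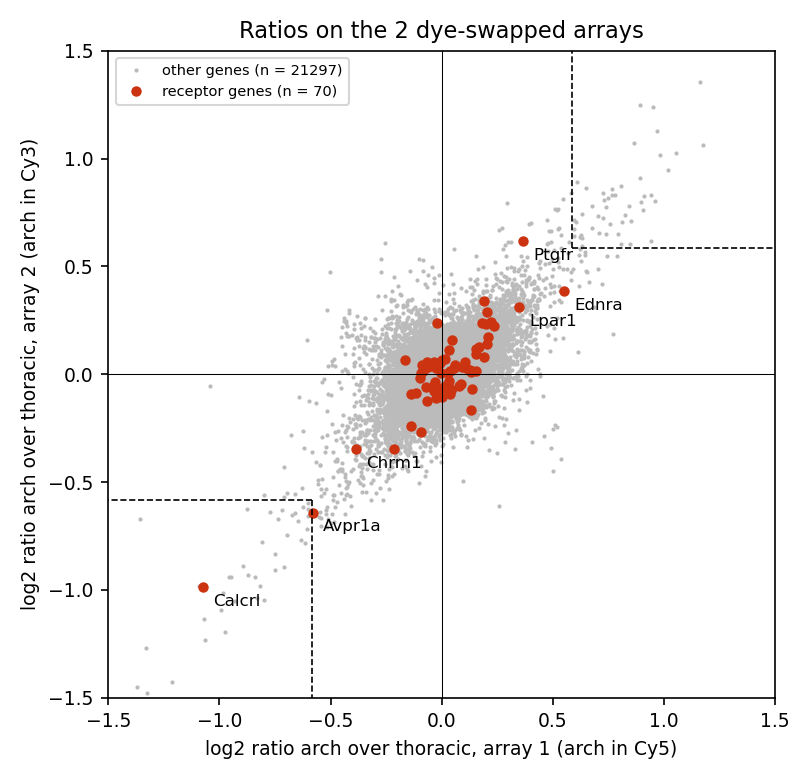
Log2 ratio of arch over thoracic aorta on array 1 (x axis) against array 2 (y axis) for the 70 receptor genes (red) and all other genes (grey), with dashed corners at 1.5-fold. Calcrl lies inside the lower corner, Avpr1a at its edge, and Ptgfr and Ednra each pass the fold or come near it on 1 array only; 15 other genes lie outside the range drawn.

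The 15 Gi-coupled receptors had a median ratio of 0.01 and 10 of them were above 0. The largest was that of Chrm4, a muscarinic receptor, with 288 and 303 units in the arch, against 250 and 258 in the thoracic aorta, a ratio of 0.22 ± 0.02 at its brightest probe and 0.05 at another. The lowest was that of Ptger3, a prostaglandin E2 receptor, with 75.4 and 76.8 units in the arch, against 80.4 and 92.4 in the thoracic aorta, a ratio of −0.18 ± 0.09. Ptger3 is dim, and the scanner software's ratio for it was −0.63 ± 0.07. The alpha-2 adrenoceptors, which also restrain noradrenaline release from nerves, had ratios of 0.01 (Adra2a), 0.02 (Adra2b) and 0.05 (Adra2c), and Adra2a and Adra2b turned below 0 with median centring. Htr1d, a serotonin receptor, had 250 and 195 units in the arch, against 235 and 191 in the thoracic aorta, a ratio of 0.06 ± 0.03 that turned to −0.05 with median centring. Its regions overlapped across the arrays, though the loess ratio was above 0 on each (0.09 and 0.03). The adenosine receptors Adora1 and Adora3 had 0.10 ± 0.06 and 0.00 ± 0.03, and the muscarinic receptor Chrm2, the main subtype of the heart, had 0.04 ± 0.03.

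Of the lysolipid receptors, Lpar1, a receptor for lysophosphatidic acid that the array files carry under its older name Edg2, had 620 and 651 units in the arch, against 488 and 525 in the thoracic aorta. Arch values were above thoracic values on both arrays, the ratio was 0.33 ± 0.02, and the second probe gave 0.20 ± 0.02. Among the 20 receptors with over 1 kept probe, Lpar1 was the only gene whose probes all had a ratio of at least 0.2 in size. Lpar2 and Lpar6 had 0.00 ± 0.03 and −0.02 ± 0.15. The sphingosine 1-phosphate receptors S1pr1, S1pr2, S1pr3 and S1pr4 had 0.01 ± 0.03, 0.11 ± 0.13, 0.07 ± 0.04 and −0.01 ± 0.05, with opposite signs on the arrays for S1pr1, S1pr2 and S1pr4. S1pr3, for which the brightest probe of that family had 184 and 185 units in the arch, against 170 and 181 in the thoracic aorta, turned to −0.03 with median centring. Mchr1, the melanin-concentrating hormone receptor, had 285 and 282 units in the arch, against 250 and 267 in the thoracic aorta, a ratio of 0.13 ± 0.05.

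Among the natriuretic peptide receptors, the clearance receptor Npr3 was on the higher side and the cyclase receptors were not. Npr3 had 120 and 126 units in the arch, against 105 and 99.5 in the thoracic aorta, a ratio of 0.26 ± 0.07 (0.11 at a second probe, and 0.51 by the scanner software). Npr2, the receptor of C-type natriuretic peptide, had 232 and 292 units in the arch, against 248 and 296 in the thoracic aorta, a ratio of −0.06 ± 0.04. The Npr2 probes disagreed: another had 0.31 ± 0.02, from 215 and 199 units in the arch, against 171 and 162 in the thoracic aorta, and the remaining one −0.01 ± 0.06. Npr1, the receptor of atrial natriuretic peptide, had 67.6 and 71.2 units in the arch, against 70.7 and 77.7 in the thoracic aorta, a ratio of −0.10 ± 0.03, and its arch spot on array 1 was not well above background. The ligand gene Nppa, which is also a marker of atrial muscle, had 0.28 ± 0.03, and Nppc had −0.04 ± 0.05.

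The nucleotide receptors and the other channels showed small differences. P2rx2, an ATP-gated channel, had 358 and 351 units in the arch, against 304 and 300.5 in the thoracic aorta, a ratio of 0.23 ± 0.00. P2rx1, the ATP-gated channel of arterial smooth muscle, had 68.4 and 64.8 units in the arch, against 75.4 and 76.5 in the thoracic aorta, a ratio of −0.19 ± 0.05, and on array 1 its arch spot was not well above background. The scanner software gave P2rx1 a larger ratio with a wide gap between arrays, −0.78 ± 0.27. P2rx3, P2rx4, P2rx5 and P2rx7 had 0.07, 0.04, −0.04 and 0.12, and P2rx4 turned to −0.02 with median centring. The 8 P2Y receptors had a median of −0.03 with 1 above 0, P2ry14 at 0.07 ± 0.04, to which P2ry10 was added at 0.02 with median centring. Htr3a, a serotonin-gated cation channel, had 97.9 and 104 units in the arch, against 84.8 and 84.9 in the thoracic aorta, a ratio of 0.25 ± 0.04, which was 0.55 ± 0.14 by the scanner software. Another 12 receptors ranged from −0.11 (the ATP and UTP receptor P2ry2) to 0.03 (the tachykinin receptor Tacr3). Of the 70 receptors, 63 were well above background in every channel of both arrays, and the others missed it in 1 channel: P2rx1, Npr1, Htr1b, Htr4 and Htr5b in the arch on array 1, and P2ry14 and Lpar2 in the thoracic aorta on array 2. Passing is no proof of expression, since up to 10.8% of negative control spots passed in Cy3. Some of the 63 were dim: above local background P2ry10 kept 23.5 and 30.4 units in the arch, against 38.2 and 19.5 in the thoracic aorta.

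Over all classes the arch values lay above both thoracic values in 20 of 70 receptors, against 14.9% of all genes, and below both in 8 of 70, against 15.2%. These counts compare levels across the arrays and do not use the pairing of regions within an array.

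**Figure D4:**
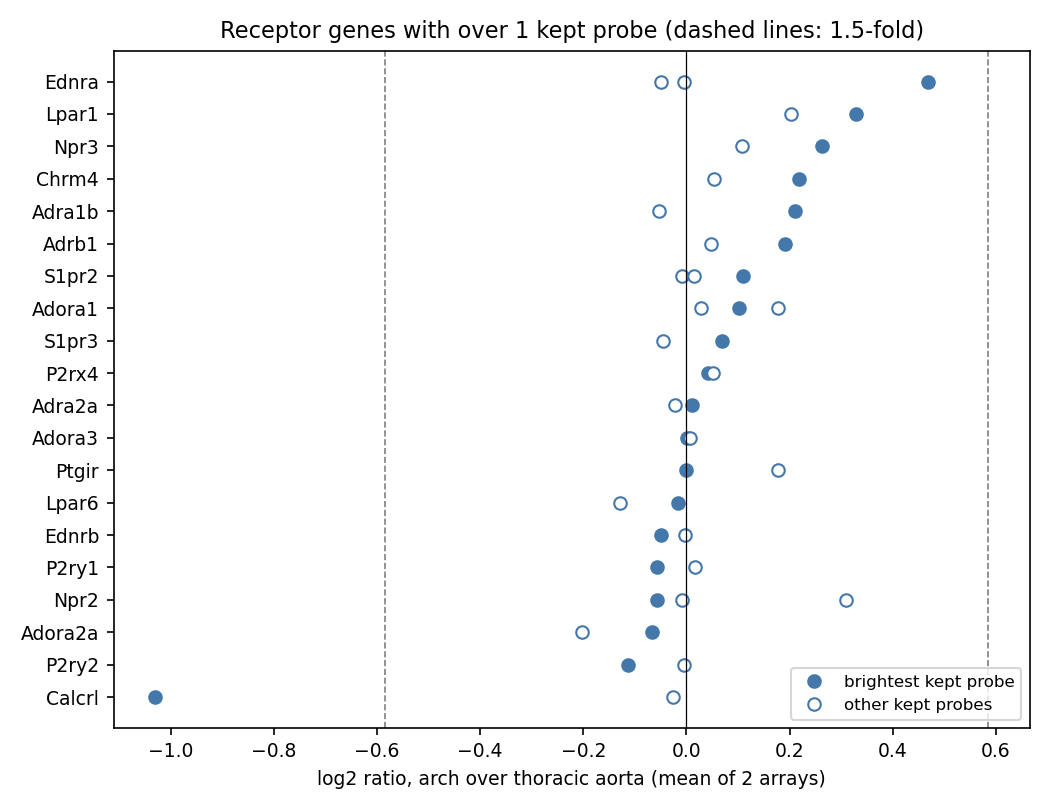
Log2 ratio of arch over thoracic aorta (x axis) of every kept probe of the 20 receptor genes with over 1 such probe; filled points are the brightest probe of each gene, open points the others. The filled point stands far from the open ones for Calcrl and Ednra, and an open point of Npr2 stands at 0.31 while its filled point is below 0.

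The size of these ratios depended on how background was treated. The median signal of the receptors above local background was 78.1 units, beside 90.3 over all genes, and by construction an offset pulls the ratios of dim spots toward 0. For the 13 receptors with a mean ratio of at least 0.2 in size, all 9 alternative settings gave the same sign as the values above. Part of this was fixed in advance. The 13 were chosen for the same sign on both arrays, so each array alone could not turn them. The value table nearly equals the scanner software's ratios, so it adds no separate check. Each of the 13 was well above background in every channel at its brightest probe, so the 2 other filters left its ratio as it was. The mean over probes was fixed as well for genes with a single kept probe: Avpr1a, Chrm1, P2ry6, P2rx2, Htr3a, Ramp3 and Ptgfr. With median centring 16 of the 70 receptors, all within 0.2 of 0, turned to the other sign: besides those given above these were Adora3, Bdkrb1, Htr1b, Htr2c, Lpar2, Ptgir, S1pr1 and S1pr4. Ratios ranged from −1.20 to −0.53 for Calcrl, from −1.63 to −0.58 for Avpr1a, from 0.14 to 0.66 for Ednra and from 0.36 to 0.77 for Ptgfr. At 1.5-fold, 0 receptors were called higher with an offset of 0 (0.548% of all genes) or with the scanner software's ratios (0.711%), and 2, Calcrl and Avpr1a, were called lower by each (0.487% and 0.599% of all genes). At 1.3-fold with the offset of 50, Ednra was higher (0.627% of all genes) and Calcrl and Avpr1a were lower (0.524%). With the scanner software's ratios, 6 receptors were at least 1.3-fold higher on each array (Adra1b, Ednra, Htr3a, Npr3, P2ry14, Ptgfr), against 1.97% of all genes, and 4 at least 1.3-fold lower (Avpr1a, Calcrl, P2rx1, Ptger3), against 1.36%.

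**Figure D5:**
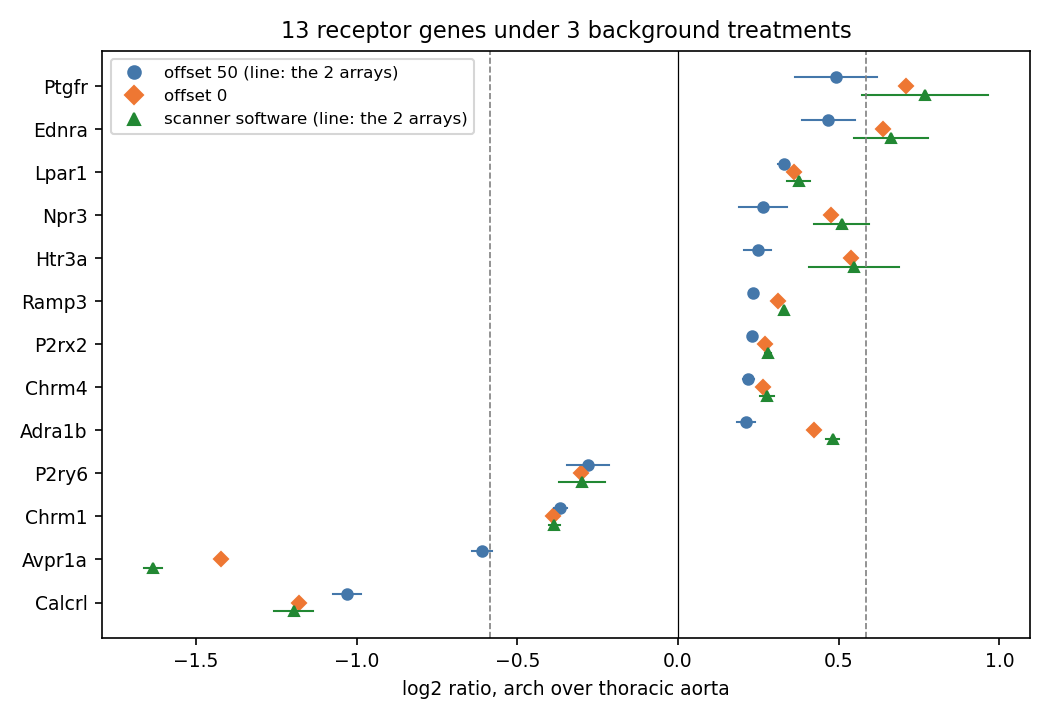
Log2 ratio of arch over thoracic aorta (x axis) of the 13 receptors with a mean of at least 0.2 in size, under 3 background treatments; lines join the 2 arrays. Every gene keeps its side of 0, Avpr1a moves from −0.61 to −1.63 between the offset of 50 and the scanner software, and bright genes such as Chrm1 barely move.

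The genes that surround these receptors were described by lists, of which 2 held a called gene, and 3 more did by the scanner software's ratios. The regulators of G protein signalling known from vascular muscle held 1 called gene of 5, Rgs2, which limits Gq signalling: it had 3112 and 3213 units in the arch, against 5997 and 6158 in the thoracic aorta, a ratio of −0.94 ± 0.00, with −0.30 at another probe. Like Calcrl, Rgs2 was well separated between regions on both arrays, while the median of its list was 0.08. Among the enzymes of sphingosine 1-phosphate and lysophosphatidic acid turnover 1 of 8 was called, Enpp2, the secreted enzyme that makes lysophosphatidic acid, the ligand of Lpar1. Enpp2 had 234 and 229 units in the arch, against 146 and 133 in the thoracic aorta, a ratio of 0.73 ± 0.05. The other members were not called, with the lipid phosphatase Plpp3 at 0.32 and the sphingosine kinase Sphk1 at 0.23 (−0.01 at another probe), and the median of the list was 0.00.

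The 12 G protein alpha subunits had a median of −0.04, with Gnai2 the largest at 0.16 ± 0.27, and the 7 receptor kinases and arrestins a median of 0.00, with the receptor kinase Grk3 at 0.20 ± 0.02 (−0.01 at another probe). The 14 genes of the cyclic AMP arm had a median of −0.01, with Prkar2b, a regulatory subunit of protein kinase A, at 0.46 ± 0.05, and the 6 of the cyclic GMP arm a median of −0.08, with Mrvi1, a target of the cyclic GMP-dependent kinase, at −0.17 ± 0.06. None of these 4 lists had a called gene.

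On the ligand side, 17 peptide ligand and processing genes had a median of 0.03, with adrenomedullin highest and kininogen 1 (Kng1), the precursor of bradykinin, lowest at −0.37 ± 0.05, or −1.05 ± 0.15 by the scanner software. The 8 prostanoid enzymes had a median of 0.05, with the prostaglandin-degrading Hpgd at 0.27 ± 0.05, and the 13 genes of amine and acetylcholine handling a median of 0.02, with the monoamine oxidase Maob at 0.23 ± 0.06. Of 7 genes of nucleotide and adenosine turnover, with a median of 0.03, adenosine deaminase (Ada), which removes adenosine, was the farthest from 0. It had 162 and 162 units in the arch, against 236 and 239 in the thoracic aorta, a ratio of −0.55 ± 0.01 that the scanner software gave as −0.78 ± 0.00. Nt5e of the same list went the other way, with 0.21 ± 0.03 and −0.03 at another probe. By the scanner software's ratios the brighter Nt5e probe had 0.75 ± 0.11 and was called higher. Among 22 vasoactive receptors outside the name pattern, with a median of 0.03, the thrombin receptor F2r stood highest, with 784 and 745 units in the arch, against 502 and 508 in the thoracic aorta. Its ratio of 0.60 ± 0.05 fell short of 1.5-fold on array 2 alone.

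The HtrA proteases taken by the pattern had ratios near 0. Htra1, a secreted protease of the extracellular matrix, had 7394 and 7186 units in the arch, against 7432 and 6945 in the thoracic aorta, a ratio of 0.02 ± 0.03. The mitochondrial Htra2 had 0.07 ± 0.01, Htra3 0.06 ± 0.04 and Htra4 −0.13 ± 0.02. With median centring Htra1, Htra2 and Htra3 turned to −0.15, −0.09 and −0.11.

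The pools are whole vessel wall, so fewer cells of a type and less RNA per cell cannot be told apart. The smooth muscle markers were all measured and none of 9 was called, but 3 of 9 were above 0 and the median was −0.08: Acta2 had 0.02 ± 0.11 and Tagln 0.02 ± 0.10, against −0.10 ± 0.12 for Cnn1, −0.22 ± 0.03 for Myh11 and −0.22 ± 0.01 for Des. These are the brightest probes, and other kept probes went down to −0.19 for Acta2 and −0.10 for Tagln. Despite the detergent, 9 of 10 endothelial markers were measured, at summed signals of 992 and 1024 units in the arch, against 941 and 971 in the thoracic aorta, and none was called. Their median was 0.06 with 5 of 9 above 0: Vwf had 0.26 ± 0.02, Emcn 0.25 ± 0.02, Kdr 0.18 ± 0.05 and Eng 0.11 ± 0.10, while Esam had −0.16 ± 0.02 and the dim Pecam1 and Cdh5 −0.02 ± 0.05 and −0.05 ± 0.02, and Tie1 was not above background. The 9 macrophage markers summed to 23932 and 21700 units in the arch, against 26803 and 28317 in the thoracic aorta, most of it from Lyz2 (20360 and 18256 in the arch, against 22858 and 24475 in the thoracic aorta). All macrophage markers had a mean ratio below 0 at their brightest probes, with a median of −0.09 and Tyrobp lowest at −0.35 ± 0.03, and none was called. Fcer1g and Cd163 changed sign between arrays, and another kept probe of Csf1r had 0.09. Some markers of fat and heart muscle were higher in the arch. Of the 7 brown adipocyte markers 4 were called higher (sums of 10685 and 10248 units in the arch, against 6305 and 6483 in the thoracic aorta), of the 8 other adipocyte markers 2 (28754 and 27626 in the arch, against 21336 and 22622 in the thoracic aorta), and of the 8 cardiomyocyte markers measured 3, led by Myl7 at 2.33 ± 0.01 (sums of 14977 and 14814 in the arch, against 13559 and 15397 in the thoracic aorta, with Myh6 not above background). The sums rest mostly on Fabp4 for adipocytes (0.34 ± 0.09) and on Actc1 for cardiomyocytes (−0.05 ± 0.11). Of the brown adipocyte markers 6 of 7 were above 0, with Elovl3 below at −0.10 ± 0.02. Of the other adipocyte markers 7 of 8 were above 0, with Retn below at −0.25 ± 0.03. The 7 mesothelial markers had a median of 0.41 with none called (3 of 7 were called higher by the scanner software's ratios, with a median of 0.70) and sums of 2013 and 2137 in the arch, against 1503 and 1542 in the thoracic aorta. Lists of Schwann cells and nerve, mast cells, platelets and red cells, and adventitial fibroblasts had medians of 0.04, 0.03, −0.05 and 0.04, with members on both sides. With median centring these medians were −0.03, −0.05, −0.07 and −0.13, beside −0.04 over all genes. Among fibroblast markers Lum had 0.55 ± 0.06 and Pdgfra 0.55 ± 0.15, while Col1a1 had −0.30 ± 0.01. At these probes Lum and Pdgfra lay farther from 0 than any receptor of the name pattern but Calcrl and Avpr1a. Pdgfra and Col1a1 depend on the probe: another kept probe had 0.01 for Pdgfra and 0.003 for Col1a1. Among platelet markers Ppbp had 0.38 ± 0.03 and Gp9 0.28 ± 0.02, while Pf4 had −0.28 ± 0.09. The part of these cells in the ratios of Calcrl, Avpr1a, Ptgfr, Ednra, Lpar1, P2ry6 and the other receptors was not tested.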

How the data were processed

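RNA from 2 aortic regions was measured on 2 two-colour Agilent arrays with the dyes swapped; the submitters' processing notes name Agilent Feature Extraction 9.1.1.1. Per the file headers, the deposited files give each spot's mean signal and local background as an intensity in each dye, and a log10 ratio of the processed signals. The deposited value table equals that log10 ratio (arch over thoracic aorta on both arrays) in 99.95% and 99.98% of probes, and its column medians are 0. Its scale and direction were found from this match. Depth has no meaning for arrays, whose number limits the precision.

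Background was corrected with normexp (offset 50) and ratios were normalised within arrays by loess (limma 3.58.1, R 4.3.3). Control spots had weight 0 and, with outlier spots (20 and 4), were then left out. The sign of array 2 was turned. Spots of a probe were averaged, and a gene took its brightest kept probe. Signals per region are the channels after loess and Aquantile scaling, so levels of different probes are not compared. Both arrays are 1 technical replicate, so no test was made. Symbols came from a RefSeq table (GRCm38.p6) by accession for 23134 spots, by name or synonym for 6786 and 3516, and 8098 kept the file's name. The HtrA genes are kept apart. A gene and a list are not reported here.

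Named genes are the members with a mean ratio of at least 0.2 and 1 sign, the brightest of each family, those with probes of opposite sign or called under another background treatment, the HtrA genes and, per list, the called genes or the largest ratio; further members and ligands were named for completeness. The members and lists were chosen with earlier results of these data known. The alternatives were offset 0, scanner ratios, the value table, median centring, other folds, each array alone, 2 other filters and the mean over probes. The rule was tested on simulated data for the comparison of arch and thoracic aorta (28357 probes): of probes with a true 4-fold difference it recovered 66 of 66, of those with 2-fold 36 of 67 and of those with 1.5-fold 2 of 67, and it called 0 of 28157 unchanged probes. Without the offset the counts were 66 of 66 (4-fold), 67 of 67 (2-fold) and 39 of 67 (1.5-fold), with 3 unchanged probes called. The simulation drew both regions from the same base signal, with separate noise in each channel. It used only probes well above background in every channel. It therefore does not show how often the rule calls a gene because 2 single pools differ.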

Additional observations from a re-analysis of the deposited data

How the results depend on the processing

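The error is technical only, and the offset of 50 by construction shrinks the ratios of dim probes, so a true difference near 1.5-fold can be missed. Under the alternatives the number of genes called higher and lower in the arch, 55 and 49 as reported, was 117 and 104 with offset 0, 152 and 128 with the scanner ratios or the value table, 28 and 75 with median centring, 134 and 112 at 1.3-fold and 9 and 15 at 2-fold. With each array alone it was 72 to 81 higher and 62 to 67 lower. Median centring thus moved the split toward the thoracic aorta, and it shifted the median ratio of all genes to −0.04. For the receptors, 1 gene was higher at 1.3-fold (Ednra) and 0 to 1 with each array alone (Ptgfr on array 2). Calls on the lower side numbered 2 with offset 0, scanner ratios, the value table, median centring and 1.3-fold, each time Calcrl and Avpr1a. They numbered 0 at 2-fold and 0 as the mean over probes, and 1 to 2 with each array alone. The receptors' median ratio ranged from −0.01 to 0.03. The cause of these shifts was not tested. No paired analysis was possible because the labels give no replicate numbers and each dye orientation is 1 array. The regions are paired within each array, and every ratio uses that pairing. Statements that regions overlap or lie apart compare levels across arrays and do not use it.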
